A study of Mus musculus with 8 samples.

Results

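Transcripts of amino acid and monocarboxylate transporters were compared between MHCII-high and MHCII-low macrophages of mouse pancreas tumours. The genes were taken by name, as every gene of the array whose symbol begins with Slc1a, Slc3a, Slc6a, Slc7a, Slc16a, Slc36a, Slc38a or Slc43a followed by a number. The array named 80 such genes with 146 probes, and 66 had a probe well above background, by the scanner software's own test, on at least 4 of the 8 arrays. These 66, out of 27997 genes tested, comprised 63 carriers and 3 genes whose symbols end in "os" for opposite strand (Slc36a3os, Slc7a6os and Slc6a19os). Each gene was represented by its brightest probe.

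One sample was hybridised per array, in 1 colour, with 4 MHCII-high and 4 MHCII-low samples. All 8 samples came from female mice aged 8 to 10 weeks of a strain given as FvBn, in which tumours had been implanted, and the cells were sorted by flow cytometry straight into a lysis solution. The genotype was given as not provided, and no treatment beyond the implanted tumour was named. The series' design text lists normal pancreas and tumour, and names FLT3-CRE/LSL-YFP mice, KPC mice and wild-type mice, but the labels tie none of these to a sample. The label numbers 20435, 20436, 20439 and 20442 each occur once in either group without a stated meaning. Separate animals are not stated for the 4 samples of a group, so that the spread behind each p-value may be technical. In bulk samples fewer cells of a type and less RNA per cell cannot be told apart.

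Solute carriers of these families set which amino acids and short organic acids a macrophage can take up or release. The Slc7 light chains work as exchangers bound to the heavy chains Slc3a2 (also known as CD98) or Slc3a1, so that one amino acid enters as another leaves. Slc16a1, Slc16a3, Slc16a7 and Slc16a8 are proton-linked carriers of lactate and pyruvate that need the glycoprotein basigin or embigin to reach the cell surface, whereas other Slc16 proteins carry aromatic amino acids, carnitine or thyroid hormone. In macrophages, arginine uptake feeds nitric oxide synthase and arginase, cystine uptake feeds glutathione, and glutamine uptake feeds the mitochondria.

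Across arrays, 38755 to 42086 of 56605 probes (68.5% to 74.4%) were well above background and no spot was saturated. Signals are log2 values relative to the 75th percentile of the array, and differences are MHCII-high minus MHCII-low. The 8 arrays lay on 1 slide in 2 rows, with 1 MHCII-high and 3 MHCII-low arrays in row 1 and 3 MHCII-high and 1 MHCII-low array in row 2. All 5 MHC class II genes examined (H2-Ab1, H2-Aa, H2-Eb1, Cd74 and Ciita) were higher in MHCII-high, which checks the sort. Macrophage markers such as Csf1r, C1qa and Cd68 were well above background on every array, and their summed linear signal, relative to the 75th percentile, was 244 to 328 in MHCII-high and 330 to 431 in MHCII-low. Of 12 macrophage markers, 11 had a lower mean in MHCII-high. Values of the groups did not overlap for 5 (41.7%, against 14.4% of all genes), and 1 passed (8.33%, against 4.93% of all genes). This was Adgre1, which encodes the macrophage surface protein F4/80. It was 3.26-fold lower in MHCII-high (limma, adjusted p = 0.00462, or 0.0270 when blocked by slide row). Markers of 2 other myeloid populations also moved with the groups. Of 12 dendritic cell markers, 9 passed the threshold toward MHCII-high (75%, against 4.93% of all genes), and Xcr1, Clec10a and Siglech did not. The median difference of the 12 was 2.87. Their summed signal was 49.7 to 74.3 against 35.3 to 38.6. The largest part of it came from Siglech, with mean log2 signals of 4.88 in MHCII-high and 4.84 in MHCII-low. Of 9 markers of serous-cavity macrophages, such as Gata6, Selp and Timd4, 8 were lower in MHCII-high and passed (88.9%, against 4.93% of all genes). The summed signal of the 9 was 6.27 to 19.9 against 70.2 to 88.1. Their part in the transporter differences was not tested.

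Of the 66 genes, 6 passed an adjusted p of 0.05 (limma with Benjamini-Hochberg adjustment over all genes), 2 higher and 4 lower in MHCII-high. Slc1a5, a glutamine and neutral amino acid exchanger, and the opposite-strand gene Slc36a3os were higher. The arginine carrier Slc7a2, the aromatic amino acid carrier Slc16a10, the creatine carrier Slc6a8 and Slc38a6, of the sodium-coupled neutral amino acid family, were lower. The 6 made up 9.09% of the 66, against a background of 1380 of 27997 genes (4.93%), of which 735 (2.63%) were higher and 645 (2.3%) lower. Without the 3 opposite-strand genes, 5 of 63 carriers (7.94%) passed. Values of the groups did not overlap for 14 of the 66 genes (21.2%), 6 higher and 8 lower in MHCII-high, against 14.4% of all genes (7.26% higher and 7.14% lower). The median difference of the 66 was -0.08, with 28 above 0 and 38 below, and that of all genes was -0.01. With the opposite-strand genes counted under the family they are named for, no family held more than 1 gene past the threshold: 1 of 5 in Slc1, 0 of 2 in Slc3, 1 of 14 in Slc6, 1 of 14 in Slc7, 1 of 13 in Slc16, 1 of 5 in Slc36, 1 of 10 in Slc38 and 0 of 3 in Slc43.

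Most calls were lost with the slide row as a block. Whether the row itself or the lower precision of that fit led to the loss was not tested. Adding the row as a block left 456 genes (1.63%) past the threshold in all and 2 of the 66, Slc36a3os and Slc7a9, which was not called without the block. The other 5 kept their direction but had adjusted p-values of 0.0706 to 0.129. Each row holds a single array of one group, so within-row differences are given for direction only. With the label number as a block instead, only Slc36a3os and Slc7a2 passed. Calls were also lost on leaving out samples. Of the 6, only Slc36a3os still passed without MHCII-high 20439, 2 without MHCII-low 20435, 20436 or 20442, 3 without MHCII-low 20439, 4 without MHCII-high 20435, and 5 without MHCII-high 20436 or 20442.

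**Figure D1:**
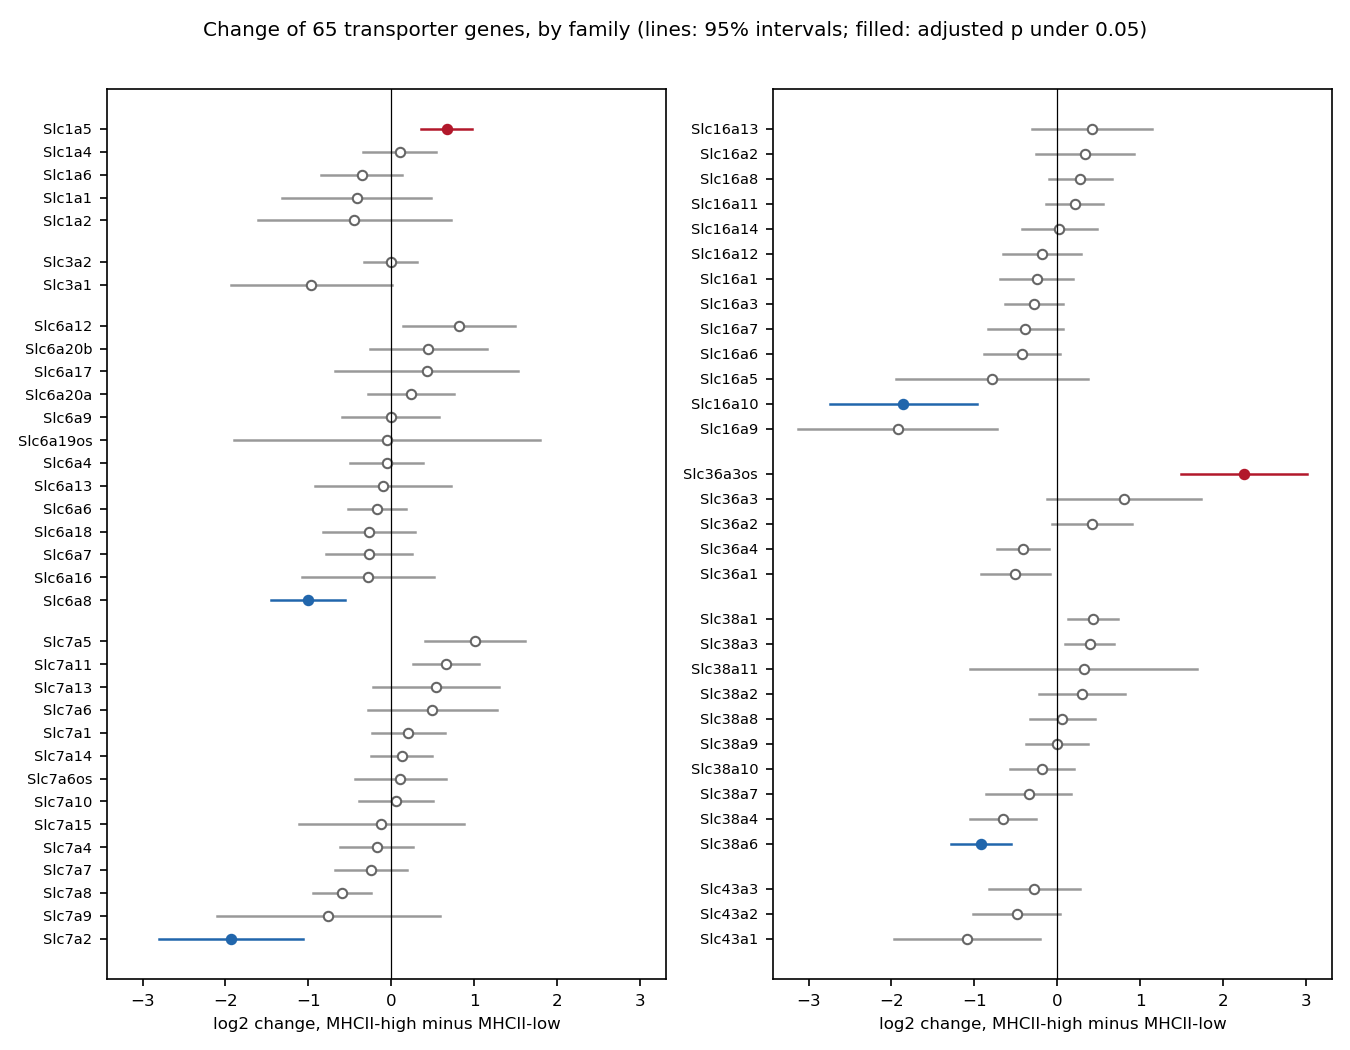
Difference of 65 of the 66 genes between MHCII-high and MHCII-low (log2, horizontal axis), in blocks by family, with 95% intervals from limma as lines and filled points for genes at an adjusted p under 0.05. Slc36a3os (2.25) and Slc1a5 (0.67) lie to the right, Slc7a2 (-1.93), Slc16a10 (-1.85), Slc6a8 (-1.003) and Slc38a6 (-0.92) to the left, and most other intervals cross 0.

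Among the heterodimeric exchangers, no chain passed the threshold. The shared heavy chain Slc3a2 had signals of 6.61, 6.41, 6.41 and 6.73 on the MHCII-high arrays, in the order 20435, 20436, 20439 and 20442 used throughout, and of 6.51, 6.52, 6.50 and 6.67 on the MHCII-low arrays. The groups overlapped and the difference was -0.01 (95% interval -0.33 to 0.31, adjusted p = 0.98), with 0.18 and 0.04 on its other probes. Its light chains did not share one direction.

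Slc7a5 (LAT1), which imports leucine and other large neutral amino acids, read 1.12, 0.74, 1.58 and 1.43 in MHCII-high and 0.59, 0.48, 0.12 and -0.35 in MHCII-low. Values of the groups were apart, and the difference of 1.01 (0.41 to 1.61) had an adjusted p of 0.0691. With normexp background correction its adjusted p was 0.0344, and with only probes above background on all 8 arrays it was 0.0431. Within the rows the difference was 0.35 and 1.73. Slc7a8 (LAT2), a light chain with overlapping substrates, lay the other way, at 3.07, 3.12, 2.76 and 2.89 against 3.67, 3.34, 3.48 and 3.73. Every MHCII-high array was below every MHCII-low array, the difference was -0.59 (-0.95 to -0.24, adjusted p = 0.0692), and a second probe gave -0.64.

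Slc7a11 (xCT) exchanges glutamate for the cystine used in glutathione synthesis and is a textbook target of ATF4, the transcription factor of the amino acid response. The 250 bases before its start carry the tandem element through which ATF4 is known to act, and they are shown because Slc7a11 was one of 3 genes of these families with that motif. From the RefSeq promoter table of GRCm38.p6, chr3:50443614-50443863, minus strand, with matches of TGATGNAA on either strand in capitals:

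Slc7a11: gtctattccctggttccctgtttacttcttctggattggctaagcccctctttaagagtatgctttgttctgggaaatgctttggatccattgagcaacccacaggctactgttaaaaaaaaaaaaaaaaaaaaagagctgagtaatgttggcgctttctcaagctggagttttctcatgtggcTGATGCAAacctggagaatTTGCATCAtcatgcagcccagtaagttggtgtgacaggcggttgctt

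The matches begin 66 and 47 bases before the start and face opposite ways. Slc7a11 signals were 1.26, 1.68, 1.73 and 1.52 in MHCII-high and 0.96, 0.75, 1.19 and 0.68 in MHCII-low. All MHCII-high arrays were above all MHCII-low arrays, the difference was 0.66 (0.26 to 1.06, adjusted p = 0.0743), within rows it was 0.72 and 0.83, and 3 further probes gave 0.93, 0.87 and 0.56. Promoters of 47 of the 66 genes were in the RefSeq table, from 250 bases before to 50 after the start, and TGATGNAA, searched on both strands, lay in those of 3 (6.38%), against 4.51% of all 27025 genes in the table. The others were Slc7a7 and Slc1a4, shown as 30-base windows on the minus strand of chromosome 14 (chr14:54418067-54418096 and chr14:54417927-54417956) and chromosome 11 (chr11:20332699-20332728), with the match in capitals:

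Slc7a7: ccgcttgggctTGATGAAAggttcactggg
Slc7a7: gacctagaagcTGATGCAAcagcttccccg
Slc1a4: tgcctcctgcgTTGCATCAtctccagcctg

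A match is a run of letters and not a measured site. Slc7a7 and Slc1a4 differed by -0.24 (adjusted p = 0.531) and 0.10 (adjusted p = 0.82), so the 3 genes with the motif lay on both sides of 0 and none passed. The antioxidant response core TGACNNNGC, the motif of NRF2, lay in 10 of the 47 promoters (21.3%) against 14% of all genes, and none of the 10 also held TGATGNAA. Neither motif was found in the promoters of Slc36a3os, Slc38a6 or Slc16a10, the called genes that the table held.

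On the brightest probes, values of the groups overlapped for the remaining chains of this kind. Slc7a7 and Slc7a6, which export cationic amino acids in exchange for neutral ones, differed by -0.24 (-0.68 to 0.20) and 0.50 (-0.29 to 1.28), and a dimmer Slc7a6 probe gave 1.71. Slc3a1, the heavy chain known from cystine uptake in kidney, read -2.65, -3.31, -3.76 and -4.82 against -2.35, -2.48, -2.70 and -3.16, a difference of -0.96 (adjusted p = 0.258). Its partner Slc7a9 was well above background on 2 MHCII-high and 3 MHCII-low arrays only. It differed by -0.76 (adjusted p = 0.524) without and by -1.66 (adjusted p = 0.0499) with the row as a block. Slc7a13, a further partner of Slc3a1, was dim in both groups and differed by 0.54 (adjusted p = 0.419), with 1.67 on a second probe.

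In the cationic amino acid group, 1 of 4 genes passed. Slc7a2 (CAT2), the cationic amino acid transporter associated with arginine supply in activated macrophages, read 2.34, 2.58, 1.68 and 0.74 on the MHCII-high arrays and 3.89, 4.04, 3.62 and 3.51 on the MHCII-low arrays. All MHCII-high arrays were below the MHCII-low arrays, which lay close together, and MHCII-high 20442 was the lowest. The group means were 1.84 ± 0.83 and 3.77 ± 0.24 (SD, n = 4 each), a 3.81-fold lower level in MHCII-high (95% interval 2.09 to 6.95, adjusted p = 0.0272, limma). Leaving out 1 array at a time lost the call for 5 of 8 arrays, with adjusted p-values of 0.0249 to 0.0808, and the difference was -1.27 and -1.93 within the rows and -1.60 with the row as a block (adjusted p = 0.105). The probe maps to mm9 chromosome 8, 42003321 to 42003380. Slc7a1 (CAT1), the widely expressed relative, read 0.75, 1.17, 0.98 and 0.49 against 0.81, 0.71, 0.73 and 0.31, overlapping, with a difference of 0.21 (-0.24 to 0.65, adjusted p = 0.603).

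Of the enzymes that use arginine or make polyamines, 11 of 11 were measured, with a median of -0.05. Of these, 1 passed upward and 1 downward (18.2%, against 4.93% of all genes). Values of the groups did not overlap for 4 of the 11 (2 higher and 2 lower, 36.4% against 14.4% of all genes). Nos2, inducible nitric oxide synthase, read 0.49, 0.07, -0.01 and -0.34 against 1.72, 1.07, 0.94 and 1.11, and was 2.22-fold lower in MHCII-high (adjusted p = 0.0310). Ass1, which rebuilds arginine from citrulline, read 0.52, 0.76, 0.73 and 0.55 against -0.12, -0.20, 0.26 and -0.19, and was 1.62-fold higher (adjusted p = 0.0422). Neither was called with the row as a block (adjusted p of 0.115 and 0.0877). Arg1, which splits arginine to ornithine and urea, differed by -1.25 without passing (adjusted p = 0.0632), although its groups did not overlap.

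**Figure D2:**
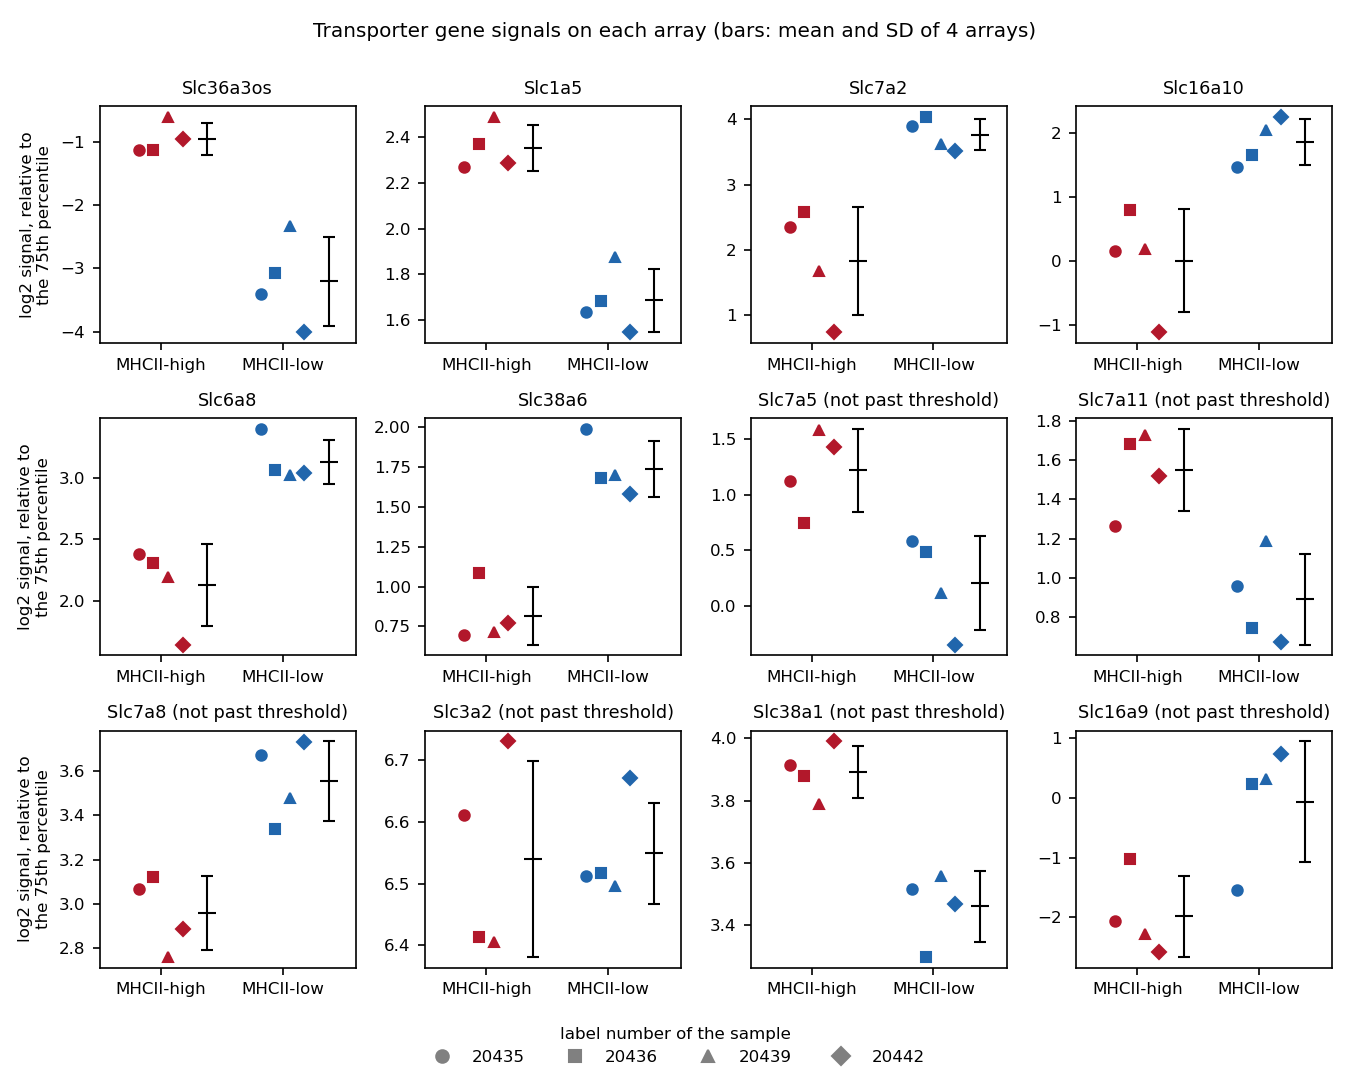
Log2 signal relative to the 75th percentile of the array (vertical axis, own scale in each panel) of 12 genes on the 4 MHCII-high (red) and 4 MHCII-low (blue) arrays, with label numbers as symbols and bars for mean and SD of 4 arrays. The groups are apart for the first 6 panels, the called genes, and for Slc7a5, Slc7a11, Slc7a8 and Slc38a1, which did not pass; they overlap for Slc3a2 and Slc16a9.

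Slc1a5 (ASCT2), an exchanger that brings in glutamine, was the only carrier called higher in MHCII-high. It read 2.27, 2.37, 2.49 and 2.29 on the MHCII-high arrays and 1.64, 1.69, 1.88 and 1.55 on the MHCII-low arrays. The groups did not overlap and their spreads were narrow, with means of 2.35 ± 0.10 and 1.69 ± 0.14 (SD, n = 4 each). The level was 1.59-fold higher (1.28 to 1.97, adjusted p = 0.0310, limma), from a probe at 17383359 to 17383418 of mm9 chromosome 7. The difference was 0.64 and 0.80 within the rows and 0.72 with the row as a block (adjusted p = 0.0844), and leaving out 1 array at a time lost the call for 7 of 8 arrays (adjusted p of 0.0480 to 0.102). Slc1a4 (ASCT1), its relative for alanine, serine and cysteine, differed by 0.10 (-0.34 to 0.53) and turned to -0.02 without MHCII-low 20442. The 3 glutamate carriers kept, Slc1a1, Slc1a2 and Slc1a6, lay at -0.42, -0.44 and -0.36, none past the threshold. Slc1a3, the glutamate carrier best known from astrocytes, had 3 probes and did not reach the background filter.

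In the Slc38 family of sodium-coupled neutral amino acid carriers, 1 of 10 genes passed. Slc38a6 (SNAT6) read 0.70, 1.08, 0.71 and 0.77 in MHCII-high and 1.99, 1.68, 1.70 and 1.58 in MHCII-low. The groups did not overlap, with means of 0.82 ± 0.18 and 1.74 ± 0.18 (SD, n = 4 each), a 1.90-fold lower level in MHCII-high (1.48 to 2.43, adjusted p = 0.0160, limma). Other probes of the gene gave -1.10 and -0.68, and leaving out 1 array at a time lost the call only without MHCII-high 20439 (adjusted p = 0.0591). The difference was -0.71 and -0.85 within the rows and -0.78 with the row as a block (adjusted p = 0.0706). The probe maps to mm9 chromosome 12, 74452745 to 74452804.

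Slc38a1 (SNAT1), a glutamine importer, lay the other way at 3.91, 3.88, 3.79 and 3.99 against 3.52, 3.30, 3.56 and 3.47. Its groups did not overlap and the difference was 0.43 (0.13 to 0.73, adjusted p = 0.106). Other probes gave 0.35, 0.60 and, at the dim end, 3.63, the last well above background on 1 MHCII-low array, and the mean of the probes passed (1.25, adjusted p = 0.0341). Slc38a2 (SNAT2), known to rise when amino acids run short, differed by 0.30 (-0.22 to 0.81) and overlapped. Slc38a4 was dim and lower in every MHCII-high array, at -3.21, -3.23, -2.94 and -2.85 against -2.51, -2.29, -2.69 and -2.13, with a difference of -0.65 (adjusted p = 0.0751) that passed after quantile normalization (adjusted p = 0.0465). Slc38a9, the lysosomal arginine sensor upstream of mTORC1, differed by -0.002 (-0.38 to 0.37), with 0.26 on a dimmer second probe. Its sign also changed with the scaling, to 0.06 with quantile normalization.

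The enzymes that handle glutamine, glutamate and branched-chain amino acids were all measured (13 of 13), with a median of -0.10. Of these, 1 was called higher and 1 lower (15.4%, against 4.93% of all genes). Got1, the cytosolic aspartate aminotransferase, read 5.16, 5.23, 4.93 and 4.98 against 4.21, 4.14, 4.24 and 4.35, and was 1.79-fold higher in MHCII-high (1.45 to 2.22, adjusted p = 0.0133). Glul, glutamine synthetase, read 4.58, 4.58, 4.15 and 3.95 against 5.29, 5.30, 5.06 and 5.55, and was 1.98-fold lower (1.45 to 2.69, adjusted p = 0.0279). With the row as a block, their adjusted p-values were 0.0566 and 0.1002.

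Slc36a1, Slc36a2 and Slc36a3, proton-coupled carriers of small amino acids, sit together on chromosome 11. Slc36a3os gave the largest difference of the 66 genes, in either direction. It read -1.13, -1.13, -0.61 and -0.95 in MHCII-high and -3.40, -3.07, -2.33 and -4.01 in MHCII-low, so that the groups were far apart and the MHCII-low arrays more spread. Means were -0.96 ± 0.25 and -3.20 ± 0.70 (SD, n = 4 each), a 4.75-fold higher level in MHCII-high (2.81 to 8.03, adjusted p = 0.00961, limma). It was the only gene of the 66 that passed under all 17 alternatives of processing and sample choice that were refitted, with adjusted p-values up to 0.0369, the row as a block among them (2.46, adjusted p = 0.0285). Within the rows the difference was 1.80 and 3.12. The size of the difference changed with the background correction, from 2.25 to 1.40 with normexp. The latter lay below the lower interval limit of 1.49 (2.81-fold), whereas leaving out 1 array at a time gave 1.98 to 2.54. The MHCII-low signals were dim, although the probe was well above background on all 8 arrays.

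The probe sequence is shown because the call rests on this single probe of a transcript named for the strand opposite Slc36a3. Its 60 bases are listed at chr11:54950611-54953300, plus strand, mm9, a stretch of 2690 bases:

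Slc36a3os: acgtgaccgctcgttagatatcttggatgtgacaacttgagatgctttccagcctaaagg

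Slc36a3 itself, probed on the minus strand at 54938431 to 54938490, read -2.46, -1.05, -1.33 and -1.57 against -2.17, -2.57, -1.61 and -3.29. It overlapped between the groups, with a difference of 0.81 (-0.13 to 1.74, adjusted p = 0.324). The 60 bases of the Slc36a3os probe span 2690 bases of the genome, so they join stretches that lie apart there. No source used here says that the amplification and labelling kept the strand. Whether RNA of an overlapping gene added to the signal was not tested. Slc36a1 (PAT1), which exports amino acids from lysosomes, was lower in every MHCII-high array, at 2.09, 2.07, 1.93 and 1.62 against 2.70, 2.31, 2.15 and 2.60, without passing (-0.51, adjusted p = 0.164). Slc36a4 also had groups that did not overlap (-0.42, adjusted p = 0.132), and the 3 probes of Slc36a2 disagreed, at 0.42, -0.37 and -1.70. The other opposite-strand genes, Slc7a6os and Slc6a19os, did not pass, and the latter ranged from -2.24 to 0.78 with both ends of the range met in MHCII-low.

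Slc43a1 (LAT3) and Slc43a2 (LAT4), facilitators of large neutral amino acids that need no heavy chain, were not called. Slc43a1 read -2.85, -1.997, -1.95 and -1.86 against -2.10, -0.46, -0.62 and -1.13, where MHCII-low 20435 fell among the MHCII-high arrays, and differed by -1.09 (-1.97 to -0.21, adjusted p = 0.160). Slc43a2 differed by -0.49 (adjusted p = 0.289), and Slc43a3, the last of the 3, by -0.28.

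In the Slc6 family of sodium- and chloride-coupled carriers, 1 of 13 carriers passed. Slc6a8, which imports creatine, read 2.38, 2.31, 2.19 and 1.64 in MHCII-high and 3.40, 3.07, 3.02 and 3.04 in MHCII-low. The groups did not overlap, MHCII-high 20442 was again the lowest, and the means were 2.13 ± 0.33 and 3.13 ± 0.18 (SD, n = 4 each). The level was 2.004-fold lower in MHCII-high (1.47 to 2.74, adjusted p = 0.0268, limma), and a second probe gave -1.03. Leaving out 1 array at a time lost the call for 5 of 8 arrays (adjusted p of 0.0355 to 0.0764), and the difference was -0.86 and -0.97 within the rows and -0.91 with the row as a block (adjusted p = 0.110). The mean of the probes did not pass (-1.01, adjusted p = 0.0723). The probe maps to mm9 chromosome X, 70925849 to 70925908. Slc6a6, the taurine carrier, differed by -0.17 (-0.53 to 0.18), with -0.50 and 0.08 on other probes. Slc6a12, a betaine and GABA carrier, was dim and differed by 0.82 (adjusted p = 0.167), with MHCII-high 20435 among the MHCII-low arrays, and it passed without that sample (1.08, adjusted p = 0.0401).

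Among 13 monocarboxylate family genes, Slc16a10 (TAT1), a facilitator of tryptophan, tyrosine and phenylalanine, was the one called. It read 0.15, 0.80, 0.19 and -1.12 in MHCII-high and 1.47, 1.66, 2.05 and 2.26 in MHCII-low. The groups did not overlap, and MHCII-high 20442 was the lowest here as for Slc7a2 and Slc6a8, so that it was the lowest array for 3 of the 4 genes called lower. Means were 0.01 ± 0.81 and 1.86 ± 0.36 (SD, n = 4 each), a 3.62-fold lower level in MHCII-high (1.95 to 6.70, adjusted p = 0.0339, limma). Other probes gave -1.71 and -0.92, the latter from signals not above background on every array. The within-row differences were -0.93 and -2.52, the row as a block gave -1.72 (adjusted p = 0.129), and leaving out 1 array at a time lost the call for 6 of 8 arrays (adjusted p of 0.0280 to 0.0884). The probe maps to mm9 chromosome 10, 39796577 to 39796636.

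The lactate carriers showed no called change. Slc16a3 (MCT4), the exporter of lactate in glycolytic cells, read 4.72, 4.43, 4.28 and 4.28 against 4.76, 4.63, 4.59 and 4.86, overlapping, with a difference of -0.28 (-0.64 to 0.07, adjusted p = 0.360) and 0.26 on a dim second probe. Slc16a1 (MCT1) differed by -0.25 (-0.69 to 0.19). Slc16a7 (MCT2) differed by -0.39 (-0.84 to 0.07), with -0.67, -0.045, -0.845 and -1.13 on its other kept probes. The chaperone Bsg (basigin), which brings Slc16a1 and Slc16a3 to the membrane, was lower in MHCII-high. It read 4.03, 3.98, 3.82 and 3.64 against 4.76, 4.63, 4.56 and 4.75, without overlap, a 1.75-fold difference (1.40 to 2.19, adjusted p = 0.0183), and -0.79 with the row as a block (adjusted p = 0.0792). Bsg was the only one of 5 chaperones measured, of 6 listed, to pass (20%, against 4.93% of all genes), and Emb (embigin) differed by 0.33 (adjusted p = 0.463). None of 11 lactate and pyruvate genes passed (median -0.14), with Ldha at -0.20 and the mitochondrial pyruvate carrier gene Mpc1 at 0.50 (adjusted p = 0.0789). Of the 11, 3 had an unadjusted p under 0.05, against 19.7% of all genes. Values of the groups did not overlap for 3 of the 11 (1 higher and 2 lower, 27.3% against 14.4% of all genes).

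Other Slc16 genes had large differences that did not pass or did not repeat across probes. Slc16a9, reported as a carnitine carrier, read -2.06, -1.02, -2.28 and -2.59 against -1.55, 0.23, 0.32 and 0.75, where MHCII-low 20435 lay among the MHCII-high arrays. Its difference was -1.92 (-3.12 to -0.72, adjusted p = 0.0800), and -4.89 on a second probe that was well above background on 2 MHCII-high arrays and all 4 MHCII-low arrays. It passed with normexp (-1.42, adjusted p = 0.0401), with probes above background on all 8 arrays (adjusted p = 0.0470) and without MHCII-low 20435 (-2.42, adjusted p = 0.0220). Slc16a5 gave -0.79 (adjusted p = 0.441) on its brightest probe and 2.22 on another that was above background on 1 MHCII-low array, and Slc16a6 differed by -0.43 (adjusted p = 0.287).

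**Figure D3:**
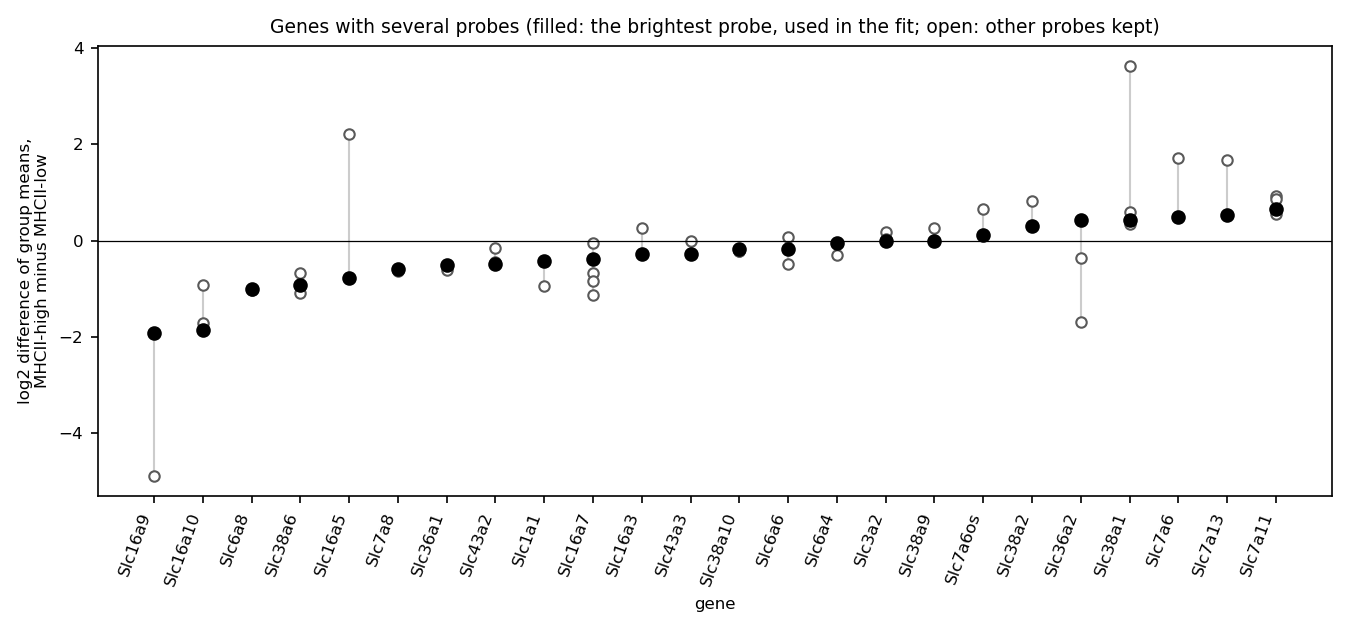
Difference of group means (log2, MHCII-high minus MHCII-low, vertical axis) for each probe of 24 of the 25 genes with several probes kept, with the brightest probe filled and the others open. All probes of a gene had one sign for 18 of the 24, and the widest gaps are at Slc16a9 (-1.92 and -4.89), Slc16a5 (-0.79 and 2.22) and Slc38a1 (0.43 and 3.63).

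The 32 genes not described by their own values above, or only in passing, had differences of -0.42 (Slc1a1) to 0.45 (Slc6a20b), 16 above 0 and 16 below, and none had an adjusted p under 0.132. The 14 genes below the background filter were Slc1a3, Slc1a7, Slc6a2, Slc6a3, Slc6a5, Slc6a11, Slc6a14, Slc6a15, Slc6a19, Slc7a3, Slc7a12, Slc16a4, Slc36a1os and Slc38a5. Many of these are known from neurons, gut or kidney, and no level is given for them here. Slc38a5 and a probe of Slc1a3 were each well above background on 3 MHCII-low arrays and on 0 MHCII-high arrays.

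Genes around the carriers were read from lists of pathway members. Of 25 amino acid response and serine synthesis genes, 24 were measured, and 4 were lower and 0 higher in MHCII-high (16.7%, against 4.93% of all genes), with a median of -0.09. Values of the groups did not overlap for 10 of the 24 (2 higher and 8 lower, 41.7% against 14.4% of all genes). In either direction, 14 of the 24 had an unadjusted p under 0.05, against 19.7% of all genes. The 4 were Trib3, a pseudokinase induced by ATF4 (-0.995, adjusted p = 0.0133), Asns, asparagine synthetase (-0.998, adjusted p = 0.0315), Gpt2, mitochondrial alanine aminotransferase (-1.25, adjusted p = 0.0333), and Eif4ebp1, a repressor of translation (-0.73, adjusted p = 0.0355). Trib3 read -1.50, -1.54, -1.62 and -1.54 against -0.27, -0.70, -0.84 and -0.42. None of the 4 passed with the row as a block, where the lowest adjusted p was 0.0513, for Trib3. Atf4 itself differed by 0.13 (adjusted p = 0.642). Of the 24, 11 lay above 0 and 13 below. The 2 with groups apart upward were Shmt2 (0.40) and Mthfd2 (0.43). Phgdh, of serine synthesis, was also higher (0.68), and none of these 3 passed the threshold.

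No gene passed among 14 glutathione and NRF2 target genes measured (median -0.30, 13 of 14 below 0, 5 with an unadjusted p under 0.05). Nor did any of 28 genes of lysosomal amino acid sensing (median -0.19, 7 with an unadjusted p under 0.05). The same held for 16 amino acid and carboxylate carriers of other families (median -0.02, 3 with an unadjusted p under 0.05). Of all genes, 19.7% had an unadjusted p under 0.05. Values of the groups did not overlap for 4 of the 14 (28.6%, all lower in MHCII-high). They did not overlap for 5 of the 28 (17.9%, 1 higher and 4 lower) and 2 of the 16 (12.5%, 1 higher and 1 lower). The share of all genes was 14.4%. In the last list Slc25a22, a mitochondrial glutamate carrier, had the largest difference (0.84, adjusted p = 0.0572), with groups that did not overlap.

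**Figure D4:**
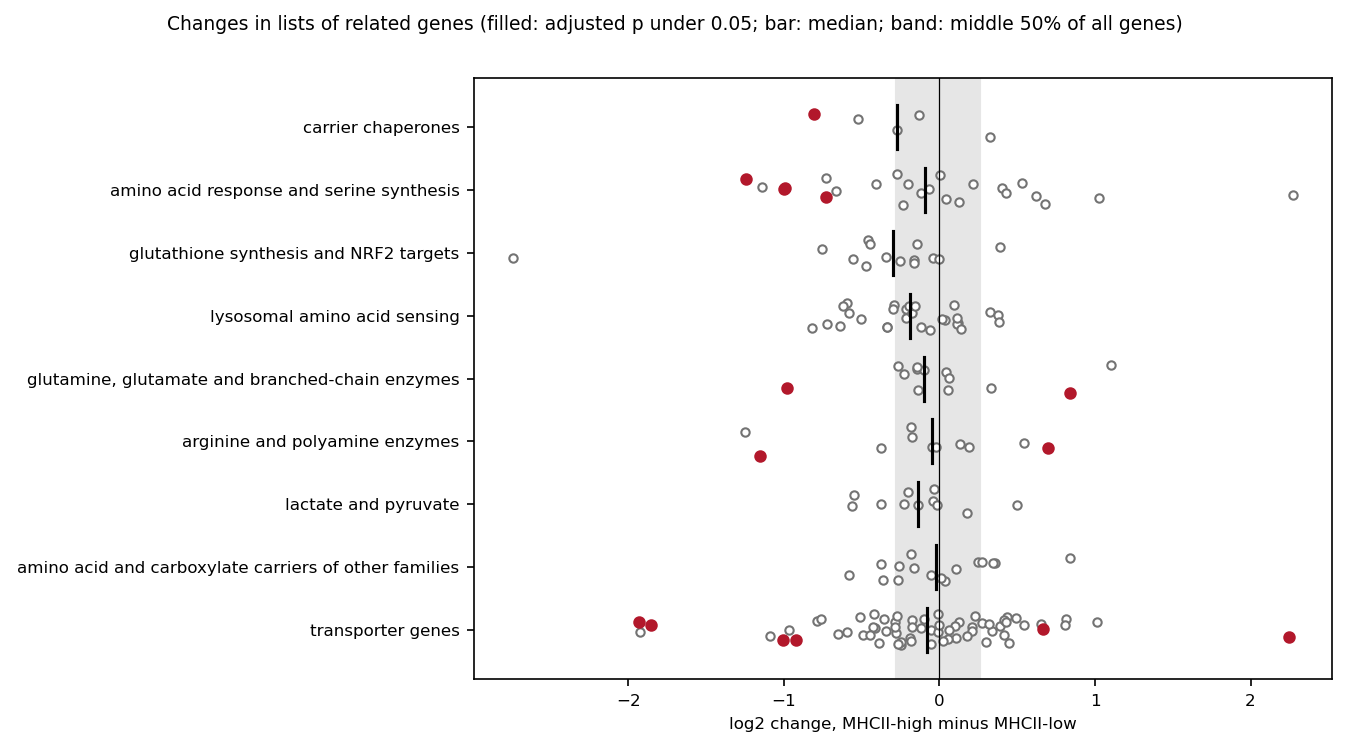
Difference of each measured gene in 8 lists of related genes and in the 66 transporter genes (log2, horizontal axis), with genes at an adjusted p under 0.05 filled, list medians as bars and a grey band from the lower to the upper quartile of all genes. Filled points are few in every list, and the medians of the 8 lists lie between -0.30 and -0.02.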

How the data were processed

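The authors' deposited scanner files give an intensity per spot in 1 colour, made with Agilent Feature Extraction, version 11.5.1.1 per the headers, with background subtracted and dim spots given surrogate values. The authors' deposited series table holds log2 values with no centring of genes; it correlated with a quantile normalization of the signals at r of 0.999998 or higher, per array over probes, and served as an alternative. Array medians in it were 9.38137 to 9.38149.

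Each array had 62976 spots, of which 3671 controls and 67 to 160 outlier spots were left out. Log2 processed signals were taken relative to the 75th percentile of the array, spots of a probe were averaged, a probe was kept if well above background on 4 or more arrays, and the brightest probe stood for its gene. All 80 transporter names were RefSeq symbols (assembly GRCm38.p6, used for names and promoters). Probe coordinates are on mm9, as the files give them, without exon or UTR annotation.

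Groups were compared by limma 3.58.1 in R 4.3.3 over all 27997 genes, two-sided, without covariates, with Benjamini-Hochberg adjustment and a threshold of 0.05; the fit was tested on simulated data. Precision is limited by 4 arrays per group. Transporter genes and lists were chosen with earlier results of these data known. Genes are named if past the threshold, among the 12 largest differences not past it, in a set of genes with known roles, or where probes disagree in sign or by more than 1. In the lists, genes past the threshold are named. Other genes named (in the lists and among the transporters) were chosen after their values were seen. Alternatives covered background correction, scaling, the filter, the probe rule, a fold minimum, the slide row or label number as a block, and leaving out each sample. One transporter gene enters the counts but is not reported here by name or drawn in the figures by gene.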

Additional observations from a re-analysis of the deposited data

Results flagged for a closer look

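In 34 named transporter genes, each group of 4 arrays was examined for an array far from the other 3, by the share of the group's range that lies between it and its nearest neighbour (Dixon's 95% critical value). Of 68 groups, 4 passed, where chance flags about 1 in 20. Slc6a8 in MHCII-low had sample 20435 at 3.40 with the next array at 3.07, a share of 0.885. Slc43a1 in MHCII-high had sample 20435 at -2.85 with the next at -1.997, a share of 0.863. In MHCII-low, sample 20442 stood apart for Slc3a2, at 6.67 above the next at 6.52 (0.871), and for Slc38a2, at 1.40 below the next at 1.96 (0.845). Without MHCII-low 20435, Slc6a8 still differed by -0.91 but had an adjusted p of 0.0764 (limma).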

How the results depend on the processing

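Blocking on the slide row, 456 genes passed (299 higher, 157 lower, against 735 and 645), and 2 transporter genes, 1 higher and 1 lower. The label numbers were not taken as pairs, as their meaning is not stated. Deviations of same-numbered samples correlated at 0.188, 0.127, 0.21 and 0.083, not all over the 0.1 set for pairing. Even so, every sample correlated best with its own number, and the highest correlation between different numbers was 0.076. As a replicate block, the label number gave 818 genes and 2 transporter genes, 1 higher and 1 lower (Slc36a3os and Slc7a2); adjusted p-values of the other calls were 0.0657 for Slc38a6, 0.0522 for Slc6a8, 0.0839 for Slc1a5 and 0.0949 for Slc16a10. With an added 2-fold minimum, 1 transporter gene was higher and 3 lower. Leaving out 1 sample gave 549 to 1157 genes, 1 to 5 transporter genes, 1 to 2 higher and 0 to 4 lower, and a median of -0.125 to -0.003; fewer samples enter those fits. The count over all genes was 549 without MHCII-high 20439, 780 without 20442, and 726, 865, 806 and 836 without MHCII-low 20435, 20436, 20439 and 20442. The median was -0.029 with normexp and -0.114 with quantile normalization. Under the other scalings, filters and probe rules 5 to 8 transporter genes passed.

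Signs changed for genes near 0 or with probes that disagree, and the cause was not tested. With the mean of a gene's probes Slc16a5 was 0.718, Slc3a2 0.072 and Slc38a9 0.129. Slc3a2 was 0.066 with normexp and 0.001 with quantile normalization and with the authors' table, where Slc38a9 was 0.061 and 0.062. Leaving out 1 sample, Slc1a4 ranged from -0.021 to 0.22, Slc3a2 from -0.073 to 0.036 and Slc38a9 from -0.101 to 0.091.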
